A study of Rattus norvegicus with 40 samples.

Results

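The mRNA of 9 enzymes and cofactors that write, copy or remove DNA methylation and the polycomb histone mark was followed in rat liver during diethylnitrosamine (DEN) carcinogenesis. The set was chosen by gene symbol: the methyltransferases Dnmt1, Dnmt3a and Dnmt3b, the cofactors Uhrf1 and Hells, the dioxygenases Tet1, Tet2 and Tet3, and the histone methyltransferase Ezh2. Of these 9 symbols, 6 were among the 17337 counted genes and 5 had enough reads to be tested. Tet1, Tet2 and Tet3 were not analysed here, and Hells had too few reads for a test. All rats were male Fischer 344 rats that entered the study at 7 weeks of age. DEN, an alkylating liver carcinogen, was injected into the peritoneum in olive oil every week at 50 mg/kg. Non-tumoral liver (NT) was taken after 8 weeks of DEN (DEN08_NT), after 14 weeks (DEN14_NT) and at 20 weeks (DEN20_NT), when the rats had been without DEN for 6 weeks. Tumor nodules (T) were taken from the rats of the later time points, 2 per rat (DEN14_T and DEN20_T). Liver of untreated rats of matching age formed the groups NOD08, NOD14 and NOD20. Each group held 4 rats. NT liver and nodules of a time point came from the same animals, and the 2 nodules of a rat were added to give 1 value, so that 40 libraries from 24 rats gave 32 values.

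DNA methylation in mammals is set on cytosines of CpG pairs. Dnmt3a and Dnmt3b place it on unmethylated DNA, and Dnmt1 copies it onto the daughter strand after replication. Uhrf1 reads the half-copied CpG pairs and recruits Dnmt1 to them, while Hells is a chromatin remodeler that opens packed chromatin to the methyltransferases. The Tet enzymes oxidize the methyl group as a step towards its removal. Ezh2, the catalytic subunit of polycomb repressive complex 2 (PRC2), methylates lysine 27 of histone H3 and is typical of dividing cells, whereas its relative Ezh1 is also made in resting cells. In adult liver most hepatocytes are quiescent, and the enzymes tied to DNA replication are held low until cells re-enter the cell cycle.

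The promoters of these genes differ in the letters that E2F factors, the main transcription factors of replication genes, are known to bind. Windows running from 250 bases before to 50 bases after each annotated start were read from RefSeq on the assembly GRCr8, whereas the counts were made on rn6. Searched on both strands were the E2F letters TTTGGCGC, TTTCCCGC, TTTGCCGC and TTTCGCGC and the NF-Y letters CCAAT, and matches to either are in capitals below, where overlapping matches run together. Promoters are shown for Ezh2 and Uhrf1, whose mRNA rose after DEN, for Dnmt1, which has an E2F match but changed little, and for Dnmt3a, which has neither motif. Dnmt3b has no entry.
Ezh2 (GRCr8, chr4:77687134-77687433, minus strand): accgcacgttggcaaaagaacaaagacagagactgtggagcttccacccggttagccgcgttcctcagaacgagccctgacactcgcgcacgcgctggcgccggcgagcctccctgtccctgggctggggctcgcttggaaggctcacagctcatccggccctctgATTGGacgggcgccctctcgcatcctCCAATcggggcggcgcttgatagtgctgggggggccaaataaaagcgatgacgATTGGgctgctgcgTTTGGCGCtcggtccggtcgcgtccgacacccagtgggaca
Uhrf1, the annotated start furthest downstream (GRCr8, chr9:1222936-1223235, plus strand): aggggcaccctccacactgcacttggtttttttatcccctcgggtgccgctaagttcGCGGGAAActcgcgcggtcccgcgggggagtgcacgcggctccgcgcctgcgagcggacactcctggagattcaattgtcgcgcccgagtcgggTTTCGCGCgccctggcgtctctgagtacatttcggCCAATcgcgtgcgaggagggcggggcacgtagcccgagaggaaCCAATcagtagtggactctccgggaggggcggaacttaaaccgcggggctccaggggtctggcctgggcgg
Dnmt1 (GRCr8, chr8:27762792-27763091, minus strand): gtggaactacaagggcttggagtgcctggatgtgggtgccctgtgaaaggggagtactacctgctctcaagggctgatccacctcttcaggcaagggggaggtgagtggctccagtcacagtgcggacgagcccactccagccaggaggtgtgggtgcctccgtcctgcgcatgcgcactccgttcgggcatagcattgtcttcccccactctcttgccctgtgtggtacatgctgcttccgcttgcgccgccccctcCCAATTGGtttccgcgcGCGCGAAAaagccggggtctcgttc
Dnmt3a (GRCr8, chr6:32598352-32598651, plus strand): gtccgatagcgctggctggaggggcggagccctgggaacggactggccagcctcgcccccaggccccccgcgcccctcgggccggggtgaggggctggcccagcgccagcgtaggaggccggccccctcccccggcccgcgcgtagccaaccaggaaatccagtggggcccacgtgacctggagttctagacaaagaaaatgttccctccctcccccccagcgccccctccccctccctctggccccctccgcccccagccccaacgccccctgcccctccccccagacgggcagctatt

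The Ezh2 window held TTTGGCGC, 9 bases after the start, together with 3 CCAAT matches and 30 CpG pairs. For Uhrf1, 1 of 3 annotated starts had E2F letters, 2 matches beginning 193 and 99 bases before it. The Dnmt1 window held TTTCGCGC on the opposite strand 25 bases after the start, and the Hells window held TTTCCCGC 29 bases before it. The Dnmt3a window had 21 CpG pairs and none of the searched letters. Among all 33469 windows, 2.14% held E2F letters and 37.5% held CCAAT, and the median window had 7 CpG pairs. The letters TTTGAA of the cell cycle homology region were searched as well. None of the member windows held them, beside 18.3% of all windows. Counted by gene, 4 of the 8 members with an entry had E2F letters at some start, beside 15 of 26 genes of an S-phase list (DNA replication genes such as Pcna and Mcm2), 1 of 24 genes of a mitotic list and 651 of 27457 genes in all. Such a match is a description of the sequence and does not show that a factor was bound.

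Reads counted on genes ranged from 20528515 to 39355849 per library with a median of 30477421, except for DEN20_NT rat H26, whose library had 160622633. Read pairs counted as no feature took 34.5% and 28.2% in nodules 1 and 2 of rat F06, the highest shares, and 21.5% to 26.3% in the other libraries. In the counting mode used, these also include pairs that reach past an exon edge or lie on the other strand. Nodule 1 of F06 also had the lowest total. Values below are CPM (counts scaled to a common library size) scaled by the trimmed mean of M values (TMM). They can be compared between groups for a gene but not between genes, since they are not divided by length. A gene was called when the log2 fold change was at least 0.5 and the Benjamini-Hochberg adjusted p of the quasi-likelihood test of edgeR over all genes was at most 0.05. Rats of the untreated groups were all numbered H, whereas 2 of the DEN08, 1 of the DEN14 and 1 of the DEN20 rats were numbered F. What the letter stands for is not given in the labels, so values without the F rats are given where they matter. Markers of cell types moved with DEN as well. The summed CPM of 7 hepatocyte markers was 229000 to 270000 in untreated rats and 113000 to 242000 after DEN, and none of them was at 0. Most of this sum was Alb, and the markers did not all move in the same direction: at 14 weeks in NT liver 5 fell and 1 rose, Apoa1, which was also called as higher in NT liver at 20 weeks (1740 to 3110 CPM). The sum of 11 leukocyte markers was 47.3 to 87.3 in untreated rats and 73.8 to 182 after DEN. The 5 cholangiocyte markers summed to 16.1 to 23.6 and to 29.1 to 181, the 7 endothelial markers to 63.6 to 157 and to 168 to 230, and the 8 stellate cell and fibroblast markers, of which Col1a2 was at 0 counts in every rat, to 161 to 237 and to 226 to 476. That last sum was mostly Col3a1, and Pdgfrb fell in NT liver at 14 weeks (48.9 to 32 CPM). The part of these shifts in the results below was not tested. In bulk tissue, fewer cells of a type and less RNA per cell cannot be told apart.

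Uhrf1 rose in all 5 comparisons of DEN-treated with untreated liver and changed more than any other member. At 8 weeks the NOD08 rats had 0.576, 0.589, 0.58 and 0.119 CPM, and the DEN08_NT rats had 2.31, 1.61, 2.72 and 2.71 CPM, with no overlap. These levels rest on few reads, 3 to 15 counts in NOD08 and 55 to 85 in DEN08_NT. The log2 fold change was 2.31 ± 0.35 (SE, adjusted p = 0.000764, edgeR). At 14 weeks NOD14 rats had 0.954, 0.92, 0.923 and 0.464 CPM, while DEN14_NT rats had 5.37, 4.85 and 3.64 CPM in the H animals and 1.64 CPM in F06. Every treated rat thus lay above every untreated one, and the change was 2.29 ± 0.38 (SE, adjusted p = 0.000706). In the nodules of that time point the 3 H rats had 4.54, 5.3 and 4.79 CPM, whereas F06, with the no-feature shares given above, had 0.791 CPM and lay within the untreated range. Uhrf1 in these nodules was called with a log2 fold change of 2.22 ± 0.54 (SE, adjusted p = 0.00821), and without F06 the change was 2.59 (adjusted p = 3.6e-07).

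After 6 weeks without DEN the Uhrf1 level in NT liver was closer to that of untreated rats. NOD20 rats had 1.04, 0.592, 1.14 and 0.928 CPM, and DEN20_NT rats had 1.47, 1.06, 2.63 and 1.78 CPM, so that 1 treated rat fell inside the untreated range. The log2 fold change of 0.95 ± 0.31 (SE, adjusted p = 0.0429) passed the rule narrowly. It no longer passed when H13, H14, H15, H16, H26 or H28 was left out, with adjusted p from 0.0604 to 0.127 and log2 changes from 0.65 (without H26, the deepest library) to 1.05. Nodules at 20 weeks had 1.93, 1.42, 4.27 and 3.64 CPM, all above the untreated rats, and were called at 1.57 ± 0.38 (SE, adjusted p = 0.006). Uhrf2, the relative of Uhrf1 that does not replace it in maintenance methylation, was not called in any of these comparisons, with log2 changes between -0.21 and 0.04.

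Ezh2 rose in NT liver at 8 and 14 weeks and in the nodules of both time points, but not in NT liver at 20 weeks. NOD08 rats had 3.41, 4.42, 2.94 and 3.83 CPM, and DEN08_NT rats had 5.17, 5.58, 6.21 and 6.01 CPM, without overlap. That difference was 0.65 ± 0.15 on the log2 scale (SE, adjusted p = 0.00652). At 14 weeks the untreated rats had 3.39, 3.24, 3.58 and 4.4 CPM, NT liver had 5.65, 7.08, 9.09 and 7.12 CPM, and nodules had 5.52, 8.51, 8.24 and 7.64 CPM. The lowest value of each treated tissue was that of rat F06, and it still exceeded every untreated rat. The log2 fold change was 1.01 in both tissues, with an SE of 0.16 and an adjusted p of 0.000371 in NT liver, and an SE of 0.17 and an adjusted p of 0.00119 in nodules. At 20 weeks NT liver had 4.32, 2.89, 4.22 and 4.98 CPM beside 3.4, 4.3, 3.95 and 3.88 CPM in untreated rats, and these ranges overlapped (log2 fold change 0.10 ± 0.18, SE, adjusted p = 0.709). Nodules at 20 weeks had 6.11, 4.04, 6.06 and 7.19 CPM, of which H25 alone lay inside the untreated range. Ezh2 was called there at 0.57 ± 0.18 (SE, adjusted p = 0.0218). This call was lost without H13, H16 or H28 (adjusted p 0.0585, 0.0537 and 0.0577), and with nodule 1 of each rat alone, where the change of 0.50 lay just under the cut-off.

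Dnmt3b moved the other way. NOD14 rats had 9.19, 8.72, 9.26 and 11.1 CPM, whereas DEN14_NT rats had 5.95, 4.55, 5.02 and 6.02 CPM and DEN14_T had 7.14, 4.27, 4.65 and 4.29 CPM. No treated value reached the untreated range, and the highest nodule value was again that of F06. Dnmt3b fell by 0.80 ± 0.12 on the log2 scale in NT liver (SE, adjusted p = 0.000326) and by 0.93 ± 0.19 in nodules (SE, adjusted p = 0.00301). At 20 weeks NOD20 rats had 9.2, 9.25, 7.81 and 9.53 CPM, NT liver 7.45, 5.83, 4.89 and 6.51 CPM, and nodules 5.82, 4.67, 3.64 and 3.35 CPM. Both treated tissues lay below every untreated rat, while their own ranges overlapped. Against NOD20 the nodules showed a fall of 1.05 ± 0.18 (SE, adjusted p = 0.0012), and NT liver a fall of 0.53 ± 0.14 (SE, adjusted p = 0.0215). The NT call was lost without H14 or H16 (adjusted p 0.0512 and 0.0525) and without H26, where the change was -0.41. At 8 weeks NOD08 rats had 8.97, 10.3, 9.35 and 6.95 CPM and DEN08_NT rats 6.71, 7.8, 5.35 and 5.53 CPM. That difference of -0.49 ± 0.16 (SE, adjusted p = 0.0321) fell just short of the fold cut-off. It was called by DESeq2 (-0.51, adjusted p = 0.0125), without the filter on low counts (-0.50, adjusted p = 0.0276), without F10 (-0.60), without H08 (-0.59), and without both F rats, where it was -0.70 (adjusted p = 0.0142).

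Dnmt1 and Dnmt3a were not called in any comparison. Dnmt1 had 15.3 to 19.9 CPM in the 12 untreated rats and 17 to 25.7 CPM in the 20 values after DEN. Its largest difference was in NT liver at 14 weeks, where NOD14 rats had 18.5, 17.8, 19.6 and 19.9 CPM and DEN14_NT rats had 21.6, 25.7, 24.9 and 24.4 CPM. These groups did not overlap, and the adjusted p was 0.00119, but the log2 fold change of 0.38 ± 0.07 (SE) lay under the cut-off. In the other 4 comparisons with untreated liver it was 0.15 to 0.19. Dnmt3a had 7.69 to 10.5 CPM in untreated rats and 6.16 to 9.73 CPM after DEN. Its lowest group was DEN14_T with 6.16, 7.68, 7.12 and 6.93 CPM, below the 8.41, 8.64, 9.16 and 8.44 CPM of NOD14. That difference was -0.33 ± 0.11 (SE, adjusted p = 0.0272) and also lay under the fold cut-off, and the changes in the other comparisons with untreated liver were between -0.27 and 0.12.

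**Figure D1:**
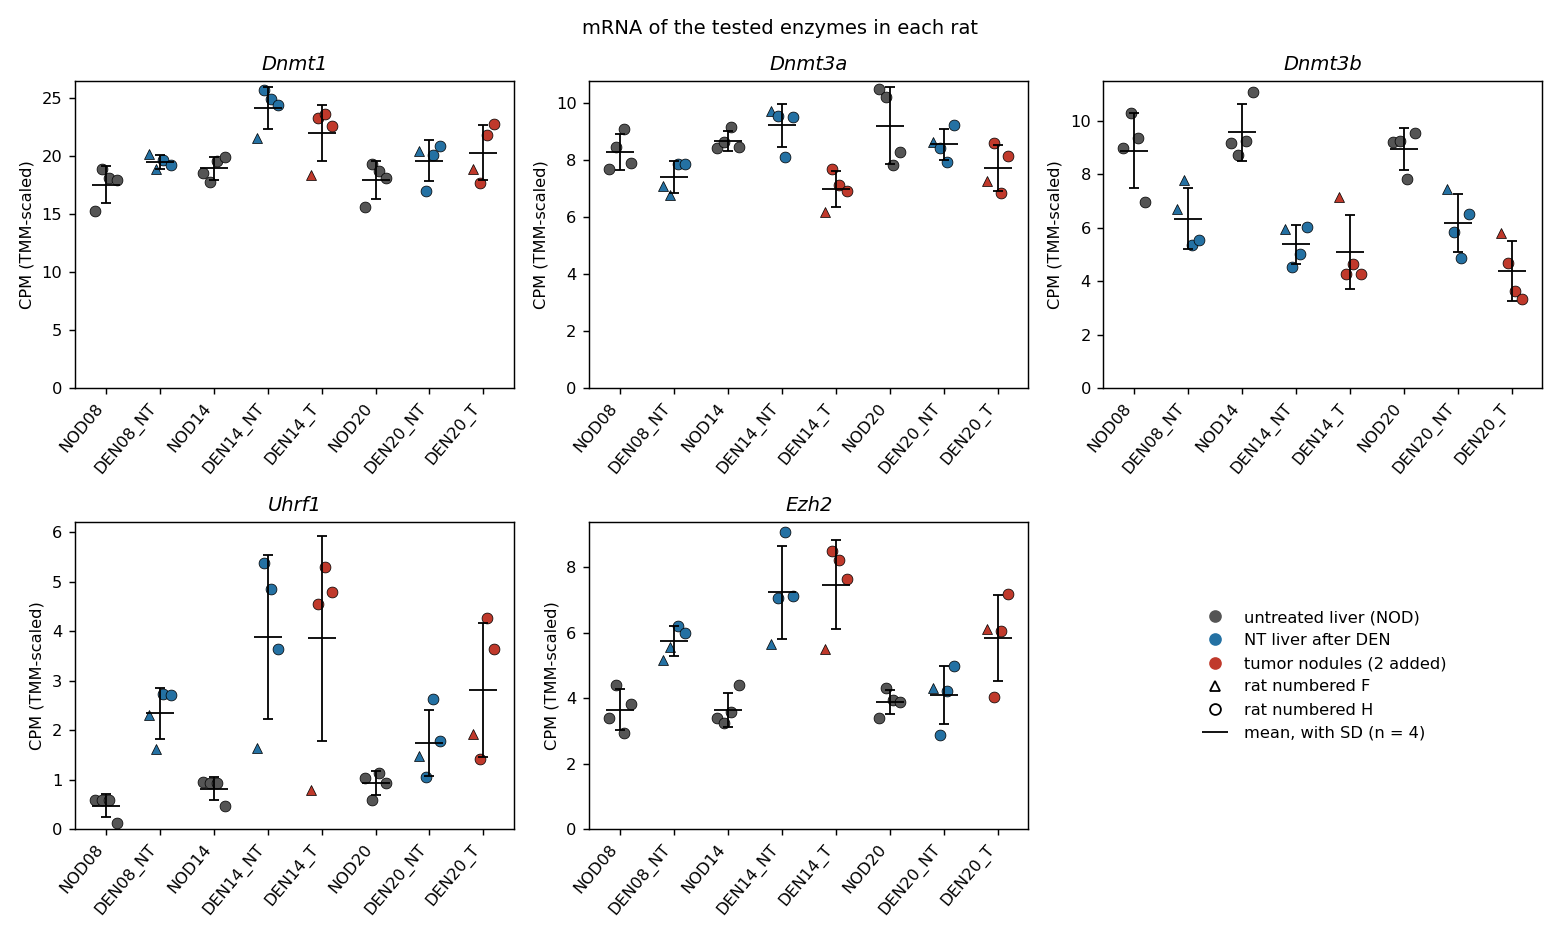
TMM-scaled CPM of Dnmt1, Dnmt3a, Dnmt3b, Uhrf1 and Ezh2 in each of the 8 groups, 1 point per rat (nodules of a rat added), with mean and SD of the 4 rats. Uhrf1 and Ezh2 are higher and Dnmt3b lower in most DEN-treated rats, F06 (triangle in the 14-week groups) has the lowest Uhrf1 of its groups at 1.64 and 0.791 CPM, and Dnmt1 and Dnmt3a stay within narrow ranges.

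Hells was close to the detection limit throughout. Its counts per rat and tissue ran from 0 to 11, with 0 counts in 1 NOD08 and 1 DEN08_NT rat, and its mean level lay between 0.0589 CPM in DEN20_NT and 0.152 CPM in DEN14_NT. No order of the groups can be read from these counts.

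**Figure D2:**
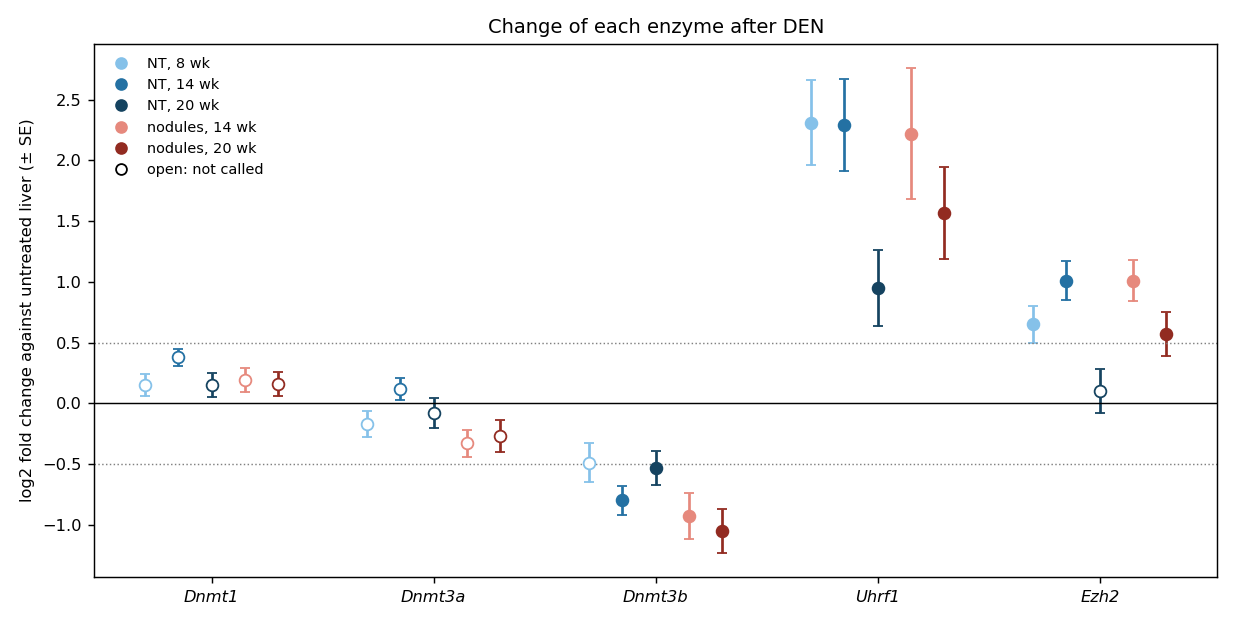
Log2 fold change of each tested member against untreated liver of the same week with its SE, for NT liver at 8, 14 and 20 weeks and nodules at 14 and 20 weeks. Filled points were called and open points were not; dotted lines mark the cut-off of 0.5, which Uhrf1 exceeds in all 5 comparisons and Dnmt1 (0.15 to 0.38) in none.

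These counts of members are set beside the shares of all genes, and with 5 tested members nothing particular to the set was read from them. At 8 weeks 2 of the 5 tested members rose and 0 fell, when 16.5% of all 10812 tested genes rose and 5.21% fell. At 14 weeks 2 rose and 1 fell in NT liver (22.8% and 9.85% of all genes), and likewise in nodules (23.9% and 15.2%). At 20 weeks 1 rose and 1 fell in NT liver (14.3% and 3.82% of all genes), while 2 rose and 1 fell in nodules (23.6% and 15.2%). Under a stricter rule, a log2 fold change of at least 1 at an adjusted p of at most 0.01, Uhrf1 remained at 8 weeks, Uhrf1 and Ezh2 at 14 weeks, and no member at 20 weeks in NT liver, where 7.29%, 13.1% and 4.89% of all genes rose. Under the main rule and without the F rats, each call of a member against untreated liver remained, and Dnmt3b was added at 8 weeks. The libraries of NOD14 served both 14-week comparisons and those of NOD20 both 20-week comparisons.

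Whether the effect of DEN on NT liver changed with time was tested as an interaction. From 8 to 14 weeks 0 of 5 members were called by edgeR or DESeq2 (2 at an unadjusted p of 0.05), when 8.96% of all genes were called by edgeR, and the change of the Uhrf1 effect was -0.03 ± 0.50 (SE, adjusted p = 0.977). From 14 to 20 weeks, across the 6 weeks without DEN, the Ezh2 effect changed by -0.91 ± 0.24 (SE, adjusted p = 0.0848) and the Uhrf1 effect by -1.32 ± 0.52 (SE, adjusted p = 0.215). Neither passed the threshold, which 0.738% of all genes did. The Ezh2 interaction did pass with DESeq2 (-0.92, adjusted p = 0.0182), without the F rats (-1.02, adjusted p = 0.05), without F06 (-1, adjusted p = 0.0308) and without H28 (-1.01, adjusted p = 0.0399). For the nodule effect from 14 to 20 weeks 0 members passed in edgeR or DESeq2, also at an unadjusted p of 0.05 (0.0862% of all genes called), with Ezh2 at -0.44 ± 0.25 (SE) and an adjusted p of 1. Between untreated liver at 8 and 20 weeks 0 members were called by edgeR or DESeq2 (1 at an unadjusted p of 0.05), when 0.374% of all genes were. Uhrf1 differed by 1.00 ± 0.39 (SE, adjusted p = 0.249) and the other 4 tested members by 0.01 to 0.15.

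In order of mean level, untreated groups came lowest for Uhrf1 (0.466, 0.815 and 0.925 CPM in NOD08, NOD14 and NOD20), followed by DEN20_NT at 1.74 CPM, DEN08_NT at 2.34 CPM, DEN20_T at 2.81 CPM, DEN14_T at 3.86 CPM and DEN14_NT at 3.88 CPM. Ranges of neighbours in that order overlapped at every step. Ezh2 ran from 3.65 CPM in NOD08 over 4.10 CPM in DEN20_NT to 7.48 CPM in DEN14_T, with a gap without overlap between DEN20_NT and DEN08_NT. For Dnmt3b the order was turned round, from 4.37 CPM in DEN20_T to 9.57 CPM in NOD14, and neighbours overlapped at every step. Over both tissues and all weeks, 18 of 20 values after DEN were above the highest untreated rat for Uhrf1 and 16 of 20 for Ezh2, and 17 of 20 were below the lowest untreated rat for Dnmt3b.

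Nodules were then set against NT liver of the same rats. At 14 weeks edgeR called 0 of 5 members (1 at an unadjusted p of 0.05) and 0% of all genes (1348 at an unadjusted p of 0.05, and 35 called by DESeq2). The largest difference of a member was that of Dnmt3a at -0.43 ± 0.12 (SE, adjusted p = 0.404), with both nodules of all 4 rats below their own NT liver. Dnmt1 was likewise below NT liver in 8 of 8 nodules, by 0.16 ± 0.10 (SE, adjusted p = 0.499). With the rat as a block, edgeR at 14 weeks also called 0% of 11466 genes as higher and 0% as lower in nodules. At 20 weeks the fit without pairing again called 0 members and 0% of all genes (2 members and 2767 genes at an unadjusted p of 0.05, and 0 and 902 called by DESeq2), but the edgeR fit with the rat as a block called 9.21% as higher and 5.46% as lower in nodules. In that blocked fit Uhrf1 rose by 0.63 ± 0.16 (SE, adjusted p = 0.0096, against 0.328 without the block) and Dnmt3b fell by 0.54 ± 0.13 (SE, adjusted p = 0.00679, against 0.164). Ezh2 differed by 0.48 ± 0.10 (SE, adjusted p = 0.00465, against 0.189), just under the fold cut-off.

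Nodule by nodule, scaled over the 40 libraries, Ezh2 was above NT liver of the same rat in 8 of 8 nodules at 20 weeks. NT liver of F03, H25, H26 and H28 had 4.51, 3, 4.39 and 5.18 CPM, their first nodules 5.5, 4.89, 5.66 and 7.67 CPM, and their other nodules 6.97, 3.77, 6.72 and 7.32 CPM. Dnmt3b was below NT liver in 8 of 8 nodules, most widely in H28 with 6.77 CPM in NT liver and 3.74 and 3.28 CPM in the nodules. Uhrf1 was above it in 6 of 8. At 14 weeks these counts were 3 above for Ezh2, 5 below for Dnmt3b and 4 above for Uhrf1. The proliferation marker Mki67 was above NT liver in 8 of 8 nodules at 20 weeks and in 7 of 8 at 14 weeks. Among the 5 tested members the 2 nodules of a rat differed most in Uhrf1, by a median of 0.55 on the log2 scale and by 1.81 in F03 (0.802 and 2.84 CPM, from 21 and 109 counts). The median difference was 0.12 for Dnmt1 and Dnmt3a, 0.16 for Ezh2 and 0.17 for Dnmt3b. These nodule pairs are not independent animals.

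**Figure D3:**
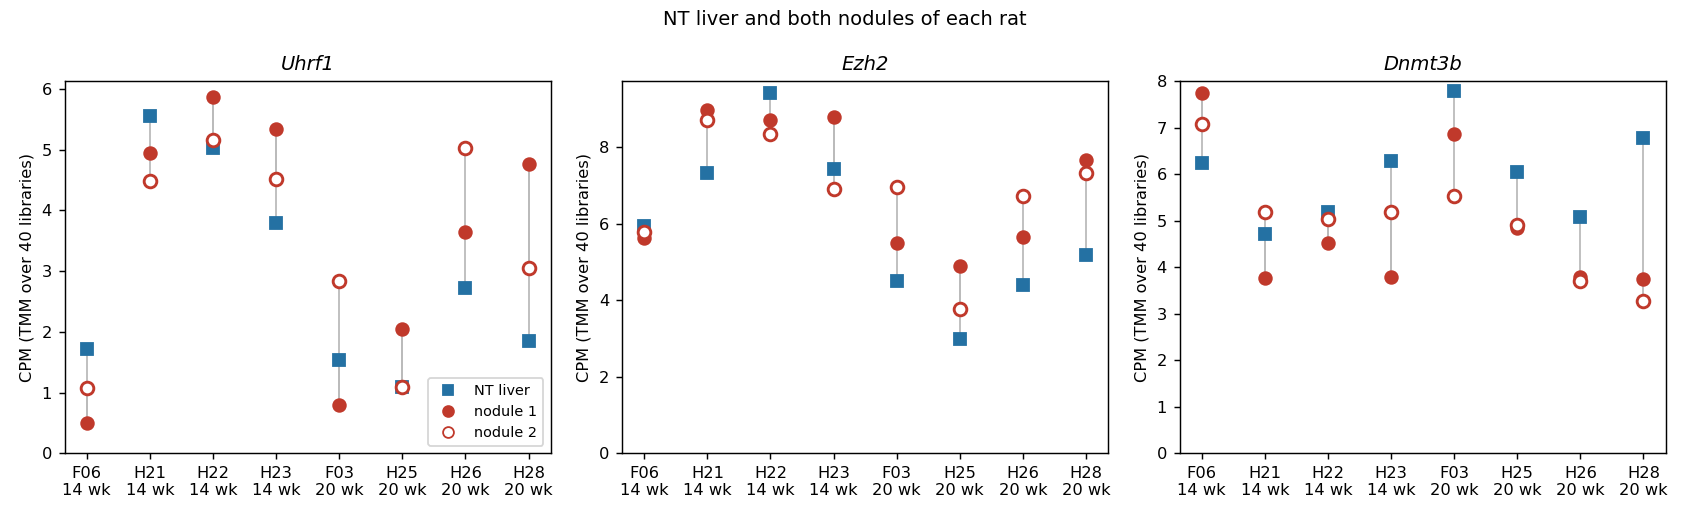
CPM of Uhrf1, Ezh2 and Dnmt3b in NT liver (squares) and in nodule 1 and nodule 2 (filled and open circles) of each DEN-treated rat, scaled over all 40 libraries. At 20 weeks all 8 nodules lie above their own NT liver for Ezh2 and below it for Dnmt3b, while at 14 weeks the symbols are mixed.

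The members were also placed beside the genes of DNA replication and mitosis. Of 31 tested S-phase genes, 25 rose in NT liver at 8 and at 14 weeks, 13 at 20 weeks, 25 in nodules at 14 weeks and 24 at 20 weeks, and 0 fell. All 26 tested mitotic genes rose in each comparison except NT liver at 20 weeks, where 14 did (9 without the F rat). Examples at 8 weeks were Rrm2, a subunit of ribonucleotide reductase, from 2.02 to 16.6 CPM, and Mki67 from 5.69 to 28.6 CPM (log2 fold change 2.32 ± 0.21, SE, adjusted p = 5.28e-05), while Pcna, the sliding clamp of replication, rose by 0.60. Across the 32 values, Pearson's r with the mean log2 level of the S-phase list was 0.92 for Uhrf1, 0.89 for Ezh2, 0.77 for Dnmt1, -0.38 for Dnmt3a and -0.85 for Dnmt3b. These values include NT liver and nodules of the same rats, and treated and untreated rats form separate groups. Within the 20 values after DEN, r was 0.89 for Uhrf1, 0.92 for Ezh2, 0.79 for Dnmt1, -0.19 for Dnmt3a and -0.57 for Dnmt3b. Within the 12 untreated rats it was 0.62 for Uhrf1 and between -0.16 and 0.11 for the others.

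**Figure D4:**
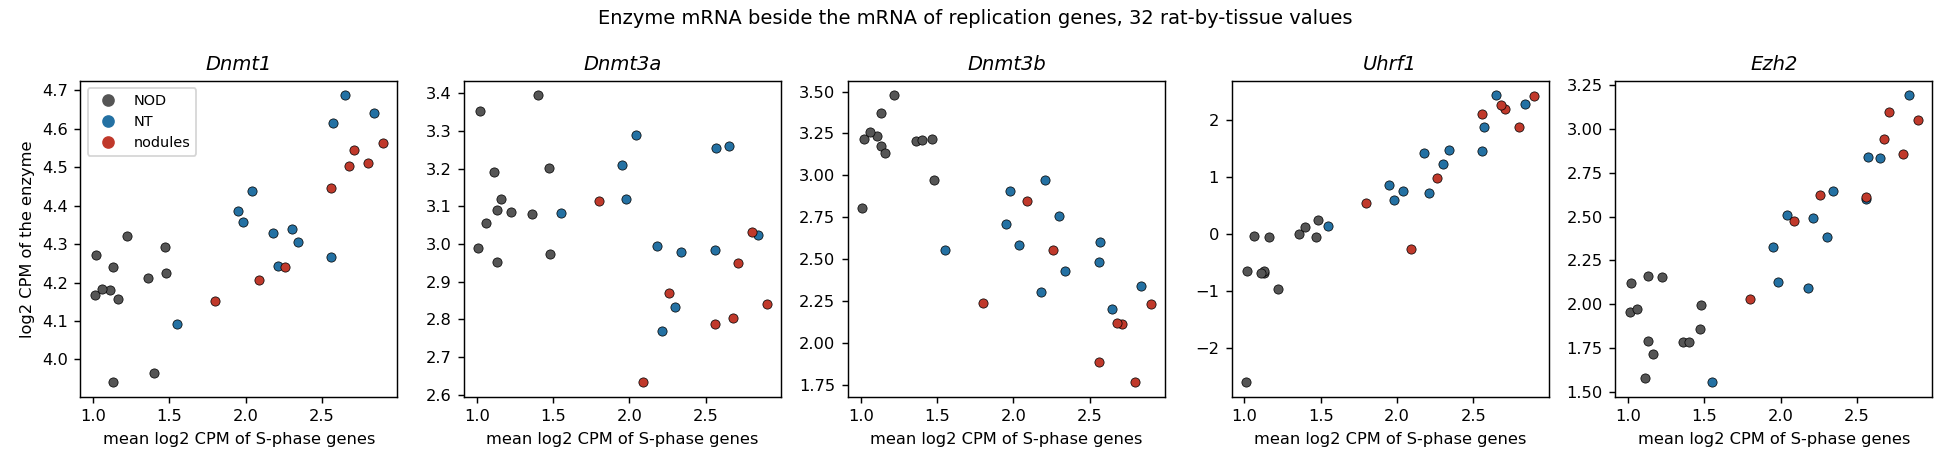
Log2 CPM of each tested member (vertical axes, each with its own range) against the mean log2 CPM of the 31 counted S-phase genes in the 32 rat-by-tissue values. Uhrf1 and Ezh2 climb with the S-phase genes (r of 0.92 and 0.89), Dnmt3b declines (-0.85), and Dnmt1 climbs over a range of less than 1 log2 unit.

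Against untreated liver Dnmt1 changed less than most of the S-phase genes, whose median log2 changes were 0.62 to 1.29. Its mean log2 level minus that of the S-phase list was 2.92 to 3.04 in the untreated groups and 1.86 to 2.38 in the groups after DEN, a description with no test. For Ezh2 the same difference was 0.57 to 0.78 and 0.11 to 0.32. Among 11595 other genes, those with the pattern most like Uhrf1 over the 32 values were Clspn (r = 0.95), Mcm5 (0.939) and Ccne2 (0.927), all genes of replication or S-phase entry. For Ezh2 they were Kif20b (0.942), Aspm (0.94) and Tpx2 (0.937), genes of the mitotic spindle. Dnmt1 was most like Cdk5rap2 (0.886), Whsc1 (0.863) and Tfdp1 (0.861), the last being the dimer partner of E2F. Dnmt3b was most like Slc19a2 (0.964), Prkd3 (0.944) and Adamts7 (0.941). For Dnmt3a the closest patterns were looser, Nr5a2 (0.756), Vsig10 (0.756) and Veph1 (0.753).

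Ratios of the counts of 2 genes in the same rat and tissue, which do not depend on the scaling, were compared between groups. The test was an exact two-sided permutation test whose smallest p is 0.0286. For nodules the counts of the 2 libraries of a rat were added first, so the deeper library weighs more. The log2 ratio of Ezh2 to Ezh1 was higher by 0.61 in DEN08_NT than in NOD08 (exact p = 0.0286, no overlap), and was -1.96 ± 0.14 in NOD14 and -1.33 ± 0.26 in DEN14_NT (SD, n = 4, exact p = 0.0286). In NT liver at 20 weeks the ratio differed by -0.10 (exact p = 0.8), and in nodules by 0.62 at 14 weeks (exact p = 0.0857) and 0.27 at 20 weeks (exact p = 0.257), each with overlap. The log2 ratio of Uhrf1 to Uhrf2 was higher by 2.67 in DEN08_NT, 2.14 in DEN14_NT, 0.96 in DEN20_NT and 1.55 in DEN20_T than in untreated liver (exact p = 0.0286 each, no overlap), and by 1.91 in DEN14_T (exact p = 0.114, with F06 inside the untreated range). For Dnmt1 to Dnmt3a the ratio was higher by 0.32 in DEN08_NT and by 0.53 in DEN14_T (exact p = 0.0286 each, no overlap), and by 0.26 in DEN14_NT (exact p = 0.0571), 0.22 in DEN20_NT (exact p = 0.229) and 0.42 in DEN20_T (exact p = 0.0857), with overlap. After adjustment over the 24 tests of 3 ratios in 8 comparisons, the smallest p was 0.0858 and none passed.

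Of 30 listed partners and readers of DNA methylation, 23 or 24 were tested in each comparison. The 24th was Cdca7l, tested at 14 weeks and in nodules at 20 weeks, which passed the filter only through the DEN libraries. Its means were 0.0885 and 0.07 CPM in NOD14 and NOD20, beside 0.426, 0.573 and 0.441 CPM in DEN14_NT, DEN14_T and DEN20_T. Any rise of Cdca7l in the counts below is therefore not read as a result. In NT liver 2 rose and 1 fell at 8 weeks, 5 rose at 14 weeks and 1 rose at 20 weeks, and in nodules 5 rose and 1 fell at 14 weeks and 4 rose and 2 fell at 20 weeks. Among all genes 16.5%, 22.8% and 14.3% rose in NT liver at 8, 14 and 20 weeks, and 23.9% and 23.6% in nodules. The medians over the list were between -0.07 and 0.07, beside -0.008 to 0.020 for all genes. Cdca7, which works with Hells in maintaining methylation, rose in all 5 comparisons, by 2.11 ± 0.29 (SE, adjusted p = 0.000454) in NT liver at 8 weeks, 2.47 at 14 weeks and 1.82 at 20 weeks, and by 2.46 and 2.62 in nodules. Its mean level went from 0.541 to 2.37 CPM at 8 weeks and from 0.798 to 5.03 CPM in nodules at 20 weeks. Suv39h1, a histone H3 lysine 9 methyltransferase, rose by 0.73 in NT liver at 14 weeks and by 0.76 and 0.69 in nodules at 14 and 20 weeks. Without the F rats Suv39h1 was called in NT liver at 8 weeks as well (0.61, adjusted p = 0.0116, edgeR). Gadd45b, a stress gene linked to demethylation, rose in each comparison except NT liver at 20 weeks. Usp7, the deubiquitinase that stabilizes Dnmt1 and Uhrf1, fell in nodules by 0.57 and 0.56 (adjusted p = 0.0184 and 0.00212), but by 0.40 and 0.45 without F06 and F03, under the cut-off. The reader Zbtb38 fell by 0.71 in NT liver at 8 weeks and by 0.65 in nodules at 20 weeks, and neither call remained without the F rats (-0.42 and -0.47).

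Of 8 other tested genes of PRC2, edgeR called 0 in NT liver at 8 and at 20 weeks (1 and 2 at an unadjusted p of 0.05, and 0 and 1 by DESeq2), 1 rose and 1 fell in NT liver and in nodules at 14 weeks, and 2 fell in nodules at 20 weeks. At 14 weeks 22.8% of all genes rose and 9.85% fell in NT liver, and 23.9% and 15.2% in nodules. In nodules at 20 weeks 23.6% of all genes rose and 15.2% fell. Suz12 was not analysed here. Eed, a core subunit, was not called in any of the 5 comparisons with untreated liver, with log2 changes of -0.23 to 0.00, and Ezh1 was not called either, with 0.04 to 0.38. The histone chaperone Rbbp7 rose at 14 weeks by 0.51 ± 0.11 (SE, adjusted p = 0.00252) in NT liver and by 0.56 ± 0.14 (SE, adjusted p = 0.00953) in nodules, and its means were 68.6 to 72.2 CPM in untreated groups, 95.8 and 102 CPM at 14 weeks, 77.2 CPM in DEN20_NT and 103 CPM in DEN20_T. Without F03 Rbbp7 was called in nodules at 20 weeks too (0.55, adjusted p = 0.0112, edgeR). Phf19, an accessory subunit that tethers PRC2 to chromatin, fell by 0.99 ± 0.16 (SE, adjusted p = 0.000506) in NT liver at 14 weeks and by 0.79 and 0.86 in the nodules. Without the F rats Phf19 was called in NT liver at 8 and 20 weeks as well (-0.70 and -0.77). Aebp2, another accessory subunit, fell by 0.86 ± 0.12 (SE, adjusted p = 0.000474) in nodules at 20 weeks.

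Polycomb complex 1 (PRC1), which binds the mark set by PRC2 and ubiquitinates histone H2A, had 17 tested genes. In NT liver at 8 and at 20 weeks 0 were called by edgeR or DESeq2 (3 and 4 at an unadjusted p of 0.05), 2 rose in NT liver at 14 weeks, and 2 rose and 2 fell in nodules at each time point, shares no higher than those of all genes given above. Cbx6 and Phc1 rose by 0.77 and 0.68 in NT liver at 14 weeks, by 0.83 and 0.85 in nodules at 14 weeks and by 0.67 and 0.76 at 20 weeks. Bmi1 and the ubiquitin ligase Rnf2 fell in nodules, Bmi1 by 0.89 and 0.63 and Rnf2 by 0.57 and 0.53. Without the F rats Rnf2 (-0.38 and -0.46) and Bmi1 at 20 weeks (-0.49) lay under the cut-off, and Phc1 was called in NT liver at 8 weeks too (0.78). Kdm6b and Bap1, the tested genes among erasers of these marks, were not called by edgeR or DESeq2 in any of the 5 comparisons with untreated liver, and at an unadjusted p of 0.05 at most 1 passed in each.

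Among 15 listed genes that polycomb is known to silence in many tissues, 5 were tested in each comparison with untreated liver. In NT liver 1 rose at 8 weeks, 2 rose and 1 fell at 14 weeks, and 1 rose and 1 fell at 20 weeks, and in nodules 2 rose and 1 fell at both times, beside the shares of all genes given above. Gata4 and Gata6, transcription factors of endoderm, were not called in any of the 5. Cdkn2a and Hoxb7 entered the tests in nodules only and are left out of these counts. Hoxb7 had means of 0.168 CPM in NOD14 and 0.455 CPM in DEN14_T. The cell cycle inhibitor Cdkn2a had means of 0.0119 to 0.0442 CPM in the untreated groups, 0.104, 0.655 and 0.385 CPM in NT liver at 8, 14 and 20 weeks and 1.37 and 1.57 CPM in nodules. These levels are a description: against untreated rats it had too few counts for a test in NT liver, and it passed the filter in nodules only through the nodule libraries. Its neighbour Cdkn2b rose by 1.19 ± 0.25 (SE, adjusted p = 0.00262) in NT liver at 14 weeks and by 1.45 and 1.33 in nodules. Within the rats at 20 weeks, the blocked fit placed Cdkn2b higher by 0.87 (adjusted p = 0.000197) in nodules than in NT liver. Sox17, a transcription factor of endothelium, rose in all 5 comparisons by 0.78 to 1.41, and the summed endothelial markers given above moved with it. Tbx3, which acts in liver progenitors and pericentral hepatocytes, fell in NT liver at 14 weeks by 0.53, at 20 weeks by 1.68, and in nodules by 1.14 and 2.59. Without the F rats Sox17 in NT liver at 8 weeks (0.52, adjusted p = 0.233) and Tbx3 in NT liver at 20 weeks (-1.5, adjusted p = 0.0873) were not called.

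**Figure D5:**
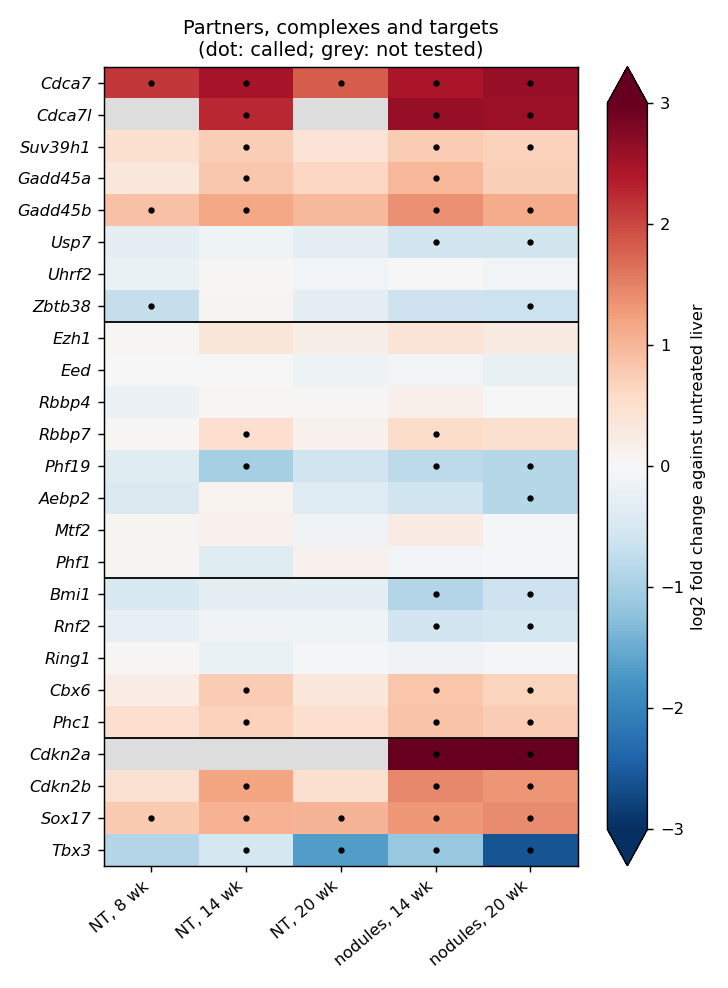
Log2 fold change against untreated liver (colour, cut at 3 either way) of selected partners of DNA methylation, the 8 tested PRC2 genes, 5 PRC1 genes and 4 genes that polycomb is known to silence, in the 5 comparisons. Dots mark called genes and grey cells were not tested. Cdca7 rises in every column, Eed has no dot, and Rbbp7 is called as higher at 14 weeks. The colours and dots of Cdca7l and Cdkn2a rest on untreated levels close to 0 CPM, and both passed the filter only through DEN libraries.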

How the data were processed

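RNA was measured in 40 liver libraries of 24 rats (TruSeq stranded mRNA, NovaSeq). The authors aligned reads to rn6 with STAR 2.7.1a and counted them on exons with HTSeq in reverse-stranded, intersection-strict mode without multi-mapped reads. They deposited raw counts for 17337 genes. Here both nodules of an animal were summed, making the rat the unit (4 per group), and groups were compared in edgeR 4.0.16 (R 4.3.3) with filterByExpr, TMM scaling and the robust quasi-likelihood test on the samples of the groups compared, with Benjamini-Hochberg adjustment over all genes. The SE is the log2 fold change divided by the root of F. Means and ranges are TMM-scaled CPM over the 32 values, and log2 levels use a prior count of 2. Ratios took counts plus 0.5 and were tested with SciPy 1.17.1. The fits were tested on simulated data.

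A call needed an absolute log2 fold change of 0.5 or more and an adjusted p of at most 0.05, and interactions at an adjusted p of at most 0.05. Alternatives were a fit of all 8 groups, DESeq2 1.42.0, scaling by RLE, all genes without the low-count filter, the stricter rule, each nodule alone, each rat left out, the F rats left out and the rat as a block. NT liver and nodules shared animals by their labels, and the deviations of a rat from its group means correlated between tissues at 0.368 to 0.543 over 11596 genes. List counts without the F rats and correlations within treated and untreated rats were added after the data were seen.

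The genes and lists were chosen with earlier results of these data known. Named were the members, Ezh1, Eed, Uhrf2, Cdca7, Mki67 and Pcna, for each list and comparison up to 3 called genes of the largest change whose mean reached 1 CPM, and for each member the 3 genes of most like pattern. Genes outside this rule (Usp7, Cdca7l, Rnf2, Kdm6b, Bap1, Gata4, Gata6, Hoxb7, Igf2, Hormad1, Brdt, Mcm2 and the cell markers Alb, Col1a2, Col3a1 and Pdgfrb) were chosen after their values were seen. With 4 rats per group, p-values set a difference against the spread between these animals and do not measure that spread.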

Additional observations from a re-analysis of the deposited data

Results flagged for a closer look

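Of 56 sets of 4 values checked for a rat apart from the other 3 by Dixon's criterion, 7 had one, and chance gives about 1 in 20. For Uhrf1, F06 had 0.791 CPM in DEN14_T (46 counts) when the other rats had 4.54 to 5.3 CPM, and the same rat had 7.14 CPM of Dnmt3b there beside 4.27 to 4.65 CPM. The nodule libraries of F06 had the highest shares of no-feature pairs, 34.5% and 28.2%, beside at most 26.3% elsewhere, and nodule 1 had the lowest total, 20528515. Their part in these values was not tested. H08 had 0.119 CPM of Uhrf1 in NOD08 from 3 counts, beside 0.576 to 0.589 CPM, and H12 had 0.464 CPM in NOD14 from 14 counts, beside 0.92 to 0.954 CPM. Dnmt3a in DEN14_NT was 8.09 CPM in H22 and 9.5 to 9.73 CPM in the others. The total count of that H22 library was 25403461, beside 31862075 to 32685467. The total count of H26 in DEN20_NT was 160622633, beside 33915562 to 37281326.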

How the results depend on the processing

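The calls of Uhrf1 at 8 and 14 weeks and in nodules of both times, of Ezh2 in NT liver at 14 weeks and nodules at 14 weeks, and of Dnmt3b in nodules of both times remained in each alternative run for them. The stricter rule was run for NT liver only. Under the stricter rule 855, 1676 and 565 genes were called in NT liver at 8, 14 and 20 weeks, with 1 member at 8 weeks and 0 at 20 weeks. In NT liver at 20 weeks the fit of all 8 groups called 1 member (Uhrf1 missed it at an adjusted p of 0.157), and leaving out a rat gave 0 to 2. DESeq2 called 35 genes between nodules and NT liver at 14 weeks and 902 at 20 weeks, 172 between untreated liver at 20 and 8 weeks, and 1529, 381 (1 member, Ezh2) and 29 for the changes of the NT effect from 8 to 14 and 14 to 20 weeks and of the nodule effect. For nodules against NT liver at 20 weeks the fit of all 8 groups called 1096 genes (1 member, Ezh2), nodule 1 alone 218, and the rat as a replicate block 1693 (2 members). The block changed no other call of a member. Leaving out a rat gave 0 to 445 genes there (445 without H25), 11 to 102 between untreated groups, 533 to 1870 and 31 to 408 (0 to 1 members) for the changes of the NT effect, and 6 to 15 for the nodule effect. Without the F rats the change from 14 to 20 weeks gave 182 genes and 1 member.

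Uncalled values changed sign as follows. Between nodules and NT liver at 14 weeks Uhrf1 was 0.07 without the F rats and 0.06 with nodule 1 alone, and Ezh2 -0.03 with nodule 2 alone. With a rat left out, ranges were -0.17 to 0.08 for Uhrf1, -0.05 to 0.10 for Ezh2 and -0.25 to 0.03 for Dnmt3b there, -0.01 to 0.24 for Ezh2 in NT liver at 20 weeks, -0.26 to 0.29 for the change of the Uhrf1 effect from 8 to 14 weeks, and -0.03 to 0.09, -0.01 to 0.19 and -0.09 to 0.09 for Dnmt1, Ezh2 and Dnmt3b between untreated groups. For the change of the nodule effect they were -0.29 to 0.09 for Dnmt3b, -0.01 to 0.13 for Dnmt3a and -0.11 to 0.01 for Dnmt1. The cause of these differences was not tested.

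Uhrf1 in untreated liver and Hells in all groups rest on few counts, which limits their precision, and intervals between 4 rats are wide. All 192 values of the ratios with a rat left out moved by less than 1 SD. Leaving out 1 of 4 values cannot move a mean by more, so this outcome was fixed in advance and shows no stability.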

Other observations

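Imprinted genes, whose parental expression depends on DNA methylation set in the germ line, were counted in the same way. Of 7 tested, 4 rose in NT liver at 8 weeks, 4 rose and 1 fell at 14 weeks, and 3 rose at 20 weeks, while in nodules 4 rose and 1 fell at 14 weeks and 3 rose and 1 fell at 20 weeks. Among all genes 16.5%, 22.8% and 14.3% rose in NT liver at these times, and 23.9% and 23.6% in nodules. With 7 genes nothing particular to the list was read from these counts. H19, a long non-coding RNA of fetal liver, had means of 0.926, 2.03 and 1.72 CPM in untreated rats at 8, 14 and 20 weeks, 3.41, 23.8 and 25.4 CPM in NT liver, and 30.8 and 36.6 CPM in nodules. The nodule mean at 20 weeks rested on 1 rat: the nodules of H26 had 82.4 CPM and those of the other rats 24.8, 20.9 and 18.2 CPM, with a mean of 21.3 CPM without H26. It rose in all 5 comparisons, by 3.87 ± 0.34 (SE, adjusted p = 0.000325, edgeR) in NT liver at 20 weeks. Mest rose in all 5 as well, by 1.37 to 2.23, and Grb10, an adaptor of insulin signalling, by 0.79 to 1.30, although without F03 its call in NT liver at 20 weeks was lost (0.77, adjusted p = 0.0573). Cdkn1c, a cell cycle inhibitor, rose by 1.79 in NT liver at 8 weeks, by 1.32 at 14 weeks and by 1.22 in nodules at 14 weeks, and its differences at 20 weeks were 0.16 and 0.21. Igf2, the neighbour of H19, was not called in any of the 5 comparisons, with differences of -0.33 to 0.91. The largest, in nodules at 20 weeks, also rested on H26, with 6.84 CPM beside 0.495 to 0.782 CPM in the others. Whether the members had a part in these changes was not tested.

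Germline genes that DNA methylation is known to keep silent in somatic cells had counts near 0. Of 12 listed, 11 were among the counted genes and 0 had enough reads for a test. The highest count in any rat and tissue was 6, for Hormad1, and Brdt had 0 counts in all of them. A count of 0 need not mean silence in these data. Col1a2 also had 0 counts in every rat, while group means of Col3a1 were 120 to 308 CPM. Whether the germline counts reflect silence or the counting was not tested.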
